A study of Mus musculus with 9 samples.

Results

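The retina of 3-week-old (P21) mice was examined for 9 genes that encode transcription factors of cone fate and cone identity: Thrb, Rxrg, Onecut1, Onecut2, Sall3, Pou2f1, Pou2f2, Nr2f1 and Nr2f2. The genes were chosen by name, not by their values, and all 9 were found among the 55487 genes of the deposited expression table. Whole retinas of C57 BL/6J mice at P21 were compared between 3 genotypes with 3 libraries each. Cre− animals carried no Cre transgene and are labelled WT. Animals of the tHet genotype were heterozygous for loxp alleles of Tet1, Tet2 and Tet3 and carried Chx10::Cre-GFP, a transgene that expresses Cre in retinal progenitor cells. Tet tcKO animals carried Chx10::Cre-GFP and were homozygous for the loxp alleles of Tet1, Tet2 and Tet3. Each library held the retinas of 2 pooled animals. Cre+ animals came from Cre+ in-crosses and Cre− animals from Cre− breeders, so genotype and breeding line cannot be told apart in comparisons with Cre−.

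The TET enzymes oxidize methylated cytosine, mostly at CG dinucleotides, and so start DNA demethylation. Cones arise early from progenitors that express the cut-homeodomain factors Onecut1 and Onecut2, and the POU-domain factors Pou2f1 and Pou2f2 act in progenitors during the window of cone genesis. Post-mitotic cones then turn on the thyroid hormone receptor gene Thrb and the retinoid X receptor gene Rxrg, whose products set the balance between the short- and medium-wavelength opsins. Sall3 takes part in short-wavelength opsin expression, and the COUP transcription factors Nr2f1 and Nr2f2 take part in the dorsoventral pattern of the opsins. None of these genes is limited to cones. Onecut genes and Sall3 are also known from horizontal cells, and the COUP factors from amacrine cells and Müller glia.

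Reads counted on genes numbered 9627927 to 21108256 per library, so that 1 read was worth 0.0474 to 0.104 CPM, the unit of all levels below, in which each library is scaled to the same total. Tet3 was at 99.2 to 152 CPM in Tet tcKO, 213 to 268 CPM in Cre− and 155 to 288 CPM in tHet, whereas the ranges of Tet1 and Tet2 overlapped between genotypes. Tet3 did not pass the test used below. Its log2 fold change was −0.99 against Cre− (limma adjusted p = 0.0174) and −0.96 against tHet (limma adjusted p = 0.0239). The counts cover whole genes and include exons outside the loxp sites. A library stood apart, Tet tcKO replicate 3, in which the ribosomal RNA gene CT010467.1 took 28.7% of the reads. The same gene took 3.72% in tHet replicate 3 and at most 0.226% in the other libraries. Since CPM divides by the total, every other gene of Tet tcKO replicate 3 was lowered 1.40-fold, a shift of 0.49 on the log2 scale. Values are therefore given as deposited and, where it matters, with totals that leave out CT010467.1. This rescaling moved the median log2 fold change (log2FC) of all tested genes from 0.0012 to 0.14 in Tet tcKO versus Cre− and from −0.056 to 0.069 in Tet tcKO versus tHet. The split of called genes against Cre− moved from 434 higher and 334 lower to 607 higher and 221 lower, and against tHet from 297 higher and 343 lower to 424 higher and 215 lower.

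Rxrg, Sall3 and Nr2f1 were higher in Tet tcKO retinas than in both controls, by 5.33-fold, 3.19-fold and 2.47-fold against Cre−. The other 6 genes, among them Thrb and both Onecut genes, did not pass the test in any comparison. A gene was called at an absolute log2FC of at least 1 and a limma adjusted p under 0.01, over the 21330 genes that reached 0.5 CPM in 3 or more libraries. By this rule 3 of 9 genes were called higher and 0 lower against Cre−, where 2.03% of all tested genes were called higher and 1.57% lower. Against tHet the same 3 of 9 were called higher and 0 lower, where 1.39% of tested genes were higher and 1.61% lower. The Tet tcKO libraries are shared by both comparisons, and 1.20% of tested genes were called higher in both. For these 3 genes every Tet tcKO library also lay above every control library, which held for 10.0% of tested genes against Cre− and for 7.35% against tHet. The median log2FC of the 9 genes was 0.31 against Cre− (all tested genes 0.0012) and 0.22 against tHet (all tested genes −0.056). The labels do not tie libraries to litters, and the p-values measure only the spread between these libraries. In a bulk sample, more cells of a type cannot be told apart from more RNA per cell.

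Rxrg (ENSMUSG00000015843.10, chromosome 1, 167598384 to 167639623, plus strand of GRCm38) encodes the retinoid X receptor gamma, the partner with which thyroid hormone receptor acts in cones. Its level was 8.65, 5.98 and 7.49 CPM in the Cre− libraries, 6.62, 11.1 and 11.0 CPM in tHet and 59.1, 41.0 and 28.5 CPM in Tet tcKO. The lowest Tet tcKO library was above the highest library of either control. Mean CPM was 7.38 ± 1.34 for Cre−, 9.59 ± 2.57 for tHet and 42.9 ± 15.4 for Tet tcKO (± SD over 3 libraries). The log2FC of Rxrg was 2.41 against Cre− (standard error 0.29, limma adjusted p = 1.79e-05) and 2.08 against tHet (standard error 0.29, limma adjusted p = 0.000119). This call held in 24 of 24 alternative settings in both comparisons, and without Tet tcKO replicate 3 the log2FC against Cre− was 2.67.

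Thrb (ENSMUSG00000021779.17, chromosome 14, 17660261 to 18038090, plus strand) encodes the thyroid hormone receptor beta, whose isoform TRβ2 is the one of cones. Counts over the whole gene do not separate TRβ2 from TRβ1. The Cre− libraries were at 145, 146 and 139 CPM, the tHet libraries at 152, 208 and 114 CPM and the Tet tcKO libraries at 223, 192 and 132 CPM. The 3 genotypes overlapped, and tHet spread as widely as Tet tcKO. Thrb had a log2FC of 0.31 against Cre− (95% interval −0.20 to 0.82, limma adjusted p = 0.660) and of 0.22 against tHet (95% interval −0.29 to 0.73, limma adjusted p = 0.734). With totals that leave out CT010467.1, Tet tcKO replicate 3 stood at 186 CPM and no Tet tcKO library overlapped with Cre−. How many of all genes separate on these totals was not counted. The log2FC of Thrb against Cre− was then 0.48 (limma adjusted p = 0.132), which did not pass the test. The median of all tested genes on these totals was 0.14. The annotated genes Gm24140, Gm48320 and Gm48321 lie within Thrb on the opposite strand and share no exon bases with it.

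The windows before the RefSeq start sites of these receptor genes are shown with those of Nr2f2 and Onecut1, since the study concerns demethylation at CG and the windows differ widely in CG content. Sequences are from RefSeq (GRCm38.p6), 5′ to 3′ on the strand of the gene, with every CG dinucleotide in capitals. Windows of 7 of the 9 genes were at hand, and each run ends at its start site or before the first exon that GENCODE gives for the gene. Those of Nr2f1 lie within exons and are not shown.
Rxrg, first start, chr1:167598112-167598361 (+): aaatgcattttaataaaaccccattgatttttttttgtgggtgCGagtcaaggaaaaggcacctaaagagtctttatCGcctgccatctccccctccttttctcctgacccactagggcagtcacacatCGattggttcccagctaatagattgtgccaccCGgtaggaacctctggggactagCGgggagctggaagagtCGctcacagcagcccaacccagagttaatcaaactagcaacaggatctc
Rxrg, second start, chr1:167618015-167618264 (+): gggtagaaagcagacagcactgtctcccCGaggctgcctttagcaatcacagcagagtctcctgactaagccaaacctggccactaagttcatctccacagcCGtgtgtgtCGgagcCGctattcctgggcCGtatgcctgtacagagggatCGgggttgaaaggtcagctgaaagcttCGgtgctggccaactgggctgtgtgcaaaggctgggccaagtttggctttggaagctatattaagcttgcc
Thrb, upstream start, chr14:17660710-17660891 (+): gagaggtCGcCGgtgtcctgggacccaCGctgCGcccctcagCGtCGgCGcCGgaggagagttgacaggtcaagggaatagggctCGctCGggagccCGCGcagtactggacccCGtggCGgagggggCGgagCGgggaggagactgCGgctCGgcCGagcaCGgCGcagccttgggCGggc
Thrb, downstream start, chr14:17981394-17981528 (+): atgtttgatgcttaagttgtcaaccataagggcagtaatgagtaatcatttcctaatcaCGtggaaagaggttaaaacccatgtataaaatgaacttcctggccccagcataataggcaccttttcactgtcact
Nr2f2, chr7:70366747-70366996 (−): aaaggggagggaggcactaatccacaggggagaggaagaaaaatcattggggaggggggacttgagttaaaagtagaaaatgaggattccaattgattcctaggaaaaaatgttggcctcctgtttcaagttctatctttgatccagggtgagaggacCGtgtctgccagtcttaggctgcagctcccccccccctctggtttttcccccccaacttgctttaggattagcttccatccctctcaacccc
Onecut1, chr9:74861671-74861920 (+): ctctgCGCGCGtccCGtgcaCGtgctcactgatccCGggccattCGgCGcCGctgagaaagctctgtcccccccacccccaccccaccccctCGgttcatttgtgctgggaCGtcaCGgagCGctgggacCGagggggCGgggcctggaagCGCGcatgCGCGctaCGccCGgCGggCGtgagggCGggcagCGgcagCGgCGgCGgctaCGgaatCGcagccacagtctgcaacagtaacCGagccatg
The windows of Rxrg held 6 and 7 CG in 250 bases, close to the median of 6 over 32851 windows of that length (quartiles 2 and 16). Onecut1 held 31 CG and Nr2f2 held 1. The full window before the upstream start of Thrb held 30 CG and that before its downstream start 2, of which 22 and 1 lie in the 182 and 135 bases shown. Motifs were searched as letters on both strands. ATCGAT, the core bound by Onecut factors, stood 123 bases before the first Rxrg start and in no other window of these genes, and was present in 0.728% of all windows. AGGTCA, the half-site of nuclear receptors, stood 88 bases before the second Rxrg start and 184 bases before the upstream Thrb start, within the run shown (14.0% of all windows). GGATTA, the core bound by Crx and Otx2, occurred in Nr2f2 at 233 and 27 bases before the start and in Thrb at 46 bases before the upstream start, past the end of the run shown (6.25% of all windows). ATGCAAAT, the octamer of the Pou2f factors, was in no window of these genes (1.60% of all windows).

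Nr2f1 (ENSMUSG00000069171.14, chromosome 13, 78188973 to 78199757, minus strand) and Nr2f2 (ENSMUSG00000030551.14, chromosome 7, 70351944 to 70366735, minus strand) encode the orphan nuclear receptors COUP-TFI and COUP-TFII. Nr2f1 was at 15.4, 14.4 and 16.5 CPM in Cre−, 13.9, 13.6 and 22.3 CPM in tHet and 44.6, 40.8 and 32.2 CPM in Tet tcKO. No Tet tcKO library overlapped a control library. The log2FC of Nr2f1 was 1.31 against Cre− (standard error 0.24, limma adjusted p = 0.00165) and 1.24 against tHet (standard error 0.24, limma adjusted p = 0.00292). Leaving out Tet tcKO replicate 1 ended the call against Cre− (limma adjusted p = 0.0176). Against tHet it ended without Tet tcKO replicate 1 (limma adjusted p = 0.0299), Tet tcKO replicate 2 (0.0113), tHet replicate 1 (0.0303) or tHet replicate 2 (0.0174), while the log2FC stayed between 1.12 and 1.46 with any 1 library left out.

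Nr2f2 was at 55.2, 55.0 and 67.0 CPM in Cre−, 49.2, 64.4 and 71.6 CPM in tHet and 107, 108 and 63.2 CPM in Tet tcKO. Tet tcKO replicates 1 and 2 were above all controls and Tet tcKO replicate 3 was within their range. Its log2FC of 0.61 against Cre− (standard error 0.24, limma adjusted p = 0.160) and of 0.56 against tHet (standard error 0.24, limma adjusted p = 0.206) did not pass the test. With totals that leave out CT010467.1, Tet tcKO replicate 3 was at 88.7 CPM, above every control library. The log2FC of Nr2f2 was then 0.77 against Cre− (standard error 0.17, limma adjusted p = 0.0110), past neither threshold. The median of all tested genes on these totals was 0.14, and how many of them separate was not counted. Each COUP gene has a partner on the opposite strand. A830082K12Rik shares 123 exon bases with Nr2f1 and was at 13.3 to 18.7 CPM in the controls and 23.6 to 31.9 CPM in Tet tcKO. B130024G19Rik shares 643 exon bases with Nr2f2 and was at 12.2 to 47.4 CPM in the controls and 4.94 to 14.6 CPM in Tet tcKO. Whether the counting used strand is not given in the sources used here, so reads over the shared bases cannot be assigned with certainty.

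Sall3 (ENSMUSG00000024565.10, chromosome 18, 80966376 to 80986771, minus strand) encodes a zinc finger factor of the Spalt family. It was at 6.65, 8.97 and 6.95 CPM in Cre− and at 7.42, 10.8 and 6.11 CPM in tHet. The Tet tcKO libraries were at 41.0, 21.9 and 17.1 CPM, all above the controls and more spread than for Nr2f1. Sall3 had a log2FC of 1.67 against Cre− (standard error 0.31, limma adjusted p = 0.00158) and of 1.60 against tHet (standard error 0.31, limma adjusted p = 0.00268). The call against Cre− ended without Tet tcKO replicate 1, the highest library (log2FC 1.32, limma adjusted p = 0.0223), or without Cre− replicate 3 (log2FC 1.63, limma adjusted p = 0.0102). Against tHet it ended without Tet tcKO replicate 1 (log2FC 1.24, limma adjusted p = 0.0382) or tHet replicate 1 (log2FC 1.56, limma adjusted p = 0.0148), the latter also with totals that leave out CT010467.1 (0.0135), and with no filter on low values (limma adjusted p = 0.0122).

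Onecut1 (ENSMUSG00000043013.10, chromosome 9, 74861921 to 74891781, plus strand) was at 10.4, 5.47 and 10.1 CPM in Cre−, 7.56, 9.35 and 12.6 CPM in tHet and 6.77, 10.2 and 7.53 CPM in Tet tcKO. All 3 genotypes overlapped, with a log2FC of −0.04 against Cre− (95% interval −0.68 to 0.59, limma adjusted p = 0.985). This sign turned with totals that leave out CT010467.1 (0.11). The annotated gene Gm20649 shares 2171 bases, 52.8% of the Onecut1 exons, on the same strand and was listed at 0 in every library, and how reads over the shared exons were counted is not given in the sources used here. Onecut2 (ENSMUSG00000045991.19, chromosome 18, 64340020 to 64400987, plus strand) was at 26.7, 20.2 and 27.7 CPM in Cre−, 18.7, 28.0 and 23.5 CPM in tHet and 20.1, 22.7 and 10.2 CPM in Tet tcKO. The lowest value was that of Tet tcKO replicate 3, at 14.3 CPM with totals that leave out CT010467.1. Onecut2 had a log2FC of −0.55 against Cre− (95% interval −1.13 to 0.04, limma adjusted p = 0.363) and of −0.45 against tHet (limma adjusted p = 0.452). Its estimate was negative in 24 of 24 alternative settings of both comparisons and passed the test in none.

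For the octamer-binding factors no difference between genotypes passed the test. Pou2f1 (ENSMUSG00000026565.18, chromosome 1, 165865154 to 166002678, minus strand) was at 56.5, 95.8 and 73.8 CPM in Cre−, 85.3, 101 and 59.3 CPM in tHet and 79.7, 90.5 and 56.6 CPM in Tet tcKO. Its log2FC against Cre− was 0.01 (95% interval −0.52 to 0.54, limma adjusted p = 0.997). Pou2f2 (ENSMUSG00000008496.19, chromosome 7, 25087344 to 25179726, minus strand) was at 7.65, 9.80 and 12.8 CPM in Cre−, 14.0, 9.76 and 9.33 CPM in tHet and 12.5, 14.7 and 7.47 CPM in Tet tcKO, a log2FC of 0.17 (95% interval −0.46 to 0.79, limma adjusted p = 0.910). For both genes the ranges of the 3 genotypes overlapped, and the intervals leave room for changes of up to 0.5 to 0.8 on the log2 scale. Cd247 shares 3007 exon bases with Pou2f1 on the opposite strand and was at no more than 3.22 CPM in any library. Mir6537, which shares 35 exon bases with Pou2f2, was listed at 0 throughout.

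**Figure D1:**
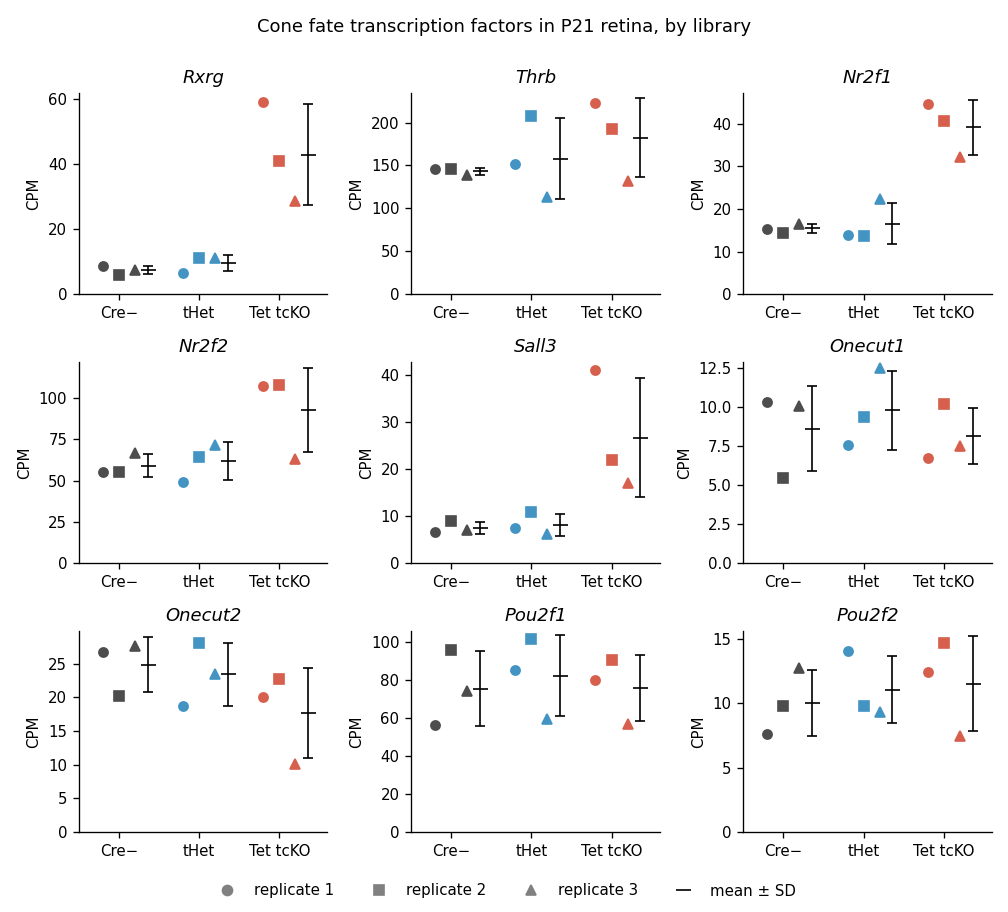
Expression of the 9 genes in each library, in CPM on a linear axis from 0, by genotype, with a symbol per replicate and the mean ± SD beside them (n = 3). For Rxrg, Nr2f1 and Sall3 all Tet tcKO libraries stand above all controls, whereas for Thrb, Onecut1, Onecut2, Pou2f1, Pou2f2 and Nr2f2 the genotypes overlap; Tet tcKO replicate 3 (triangles) is the lowest of its group for all genes but Onecut1.

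**Figure D2:**
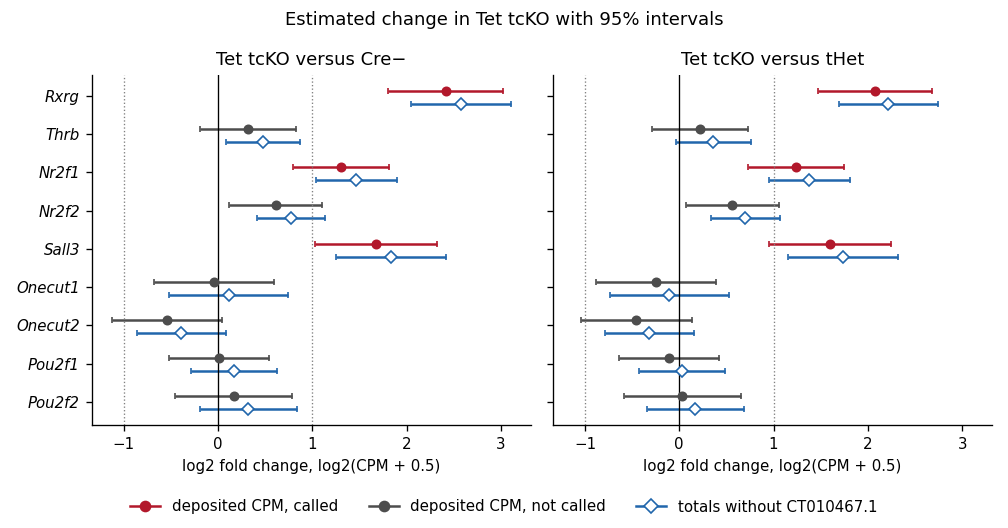
Log2FC of the 9 genes in Tet tcKO against Cre− (left) and against tHet (right) with 95% intervals from limma, as deposited (circles, red where called) and with totals that leave out CT010467.1 (diamonds). Dotted lines mark a log2FC of −1 and 1, and the estimates of Rxrg, Nr2f1 and Sall3 lie beyond 1 in both panels and on both scales.

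Between the controls no difference in these genes passed the test. In tHet versus Cre−, 0 of the 9 genes were called by limma and 0 were at an unadjusted p under 0.05, where 0.0422% of all tested genes were called and 970 genes were at an unadjusted p under 0.05. Rxrg had the largest estimate, with a log2FC of 0.34 (95% interval −0.27 to 0.94), and Onecut1 followed at 0.20. No gene of the 9 was called in this comparison by edgeR or DESeq2 on the recovered reads either.

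Compared per kilobase of annotated exon, Thrb was the most abundant of the 9 in Cre− retinas at 19.4 ± 0.54 CPM per kb. It was followed by Nr2f2 (6.85 ± 0.79), Pou2f1 (4.54 ± 1.19), Rxrg (3.21 ± 0.58) and Nr2f1 (3.03 ± 0.21), all in CPM per kb with the SD over 3 libraries. Onecut1 (2.10 ± 0.67), Onecut2 (1.53 ± 0.25), Pou2f2 (1.22 ± 0.31) and Sall3 (1.01 ± 0.17) were lowest. The length used for Onecut1 includes the 52.8% of its exons shared with Gm20649. How reads over these exons were counted is not given, so the place of Onecut1 in the order is uncertain. In this order the neighbours Rxrg and Nr2f1, Onecut1 and Onecut2, Onecut2 and Pou2f2, and Pou2f2 and Sall3 differed by no more than the larger of their SDs. In Tet tcKO, Rxrg was second at 18.7 ± 6.70 CPM per kb, within the spread of Thrb at 24.6 ± 6.23 CPM per kb. Nr2f2 was at 10.8 ± 2.97, Nr2f1 at 7.69 ± 1.25, Pou2f1 at 4.55 ± 1.04 and Sall3 at 3.57 ± 1.69 CPM per kb. Sall3 differed from both Pou2f1 and Onecut1, at 1.99 ± 0.44 CPM per kb, by less than its own SD. Pou2f2 (1.40 ± 0.45 CPM per kb) and Onecut2 (1.09 ± 0.41 CPM per kb) were lowest and within the spread of each other. In tHet the order was that of Cre−, from Thrb at 21.3 ± 6.39 CPM per kb to Sall3 at 1.08 ± 0.32 CPM per kb, with Rxrg at 4.18 ± 1.12 and Nr2f1 at 3.26 ± 0.97 CPM per kb.

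Ratios within a library depend on the library total, and so on CT010467.1, only through the 0.5 CPM added before the logarithm. Crx, a homeodomain factor of all photoreceptors, served as the denominator and was itself not called (log2FC −0.34 against Cre−, limma adjusted p = 0.665). The log2 ratio of Rxrg to Crx, on CPM + 0.5, was −6.89, −7.48 and −7.09 in Cre−, −7.33, −6.96 and −6.40 in tHet and −4.06, −4.57 and −4.58 in Tet tcKO. The difference was 2.75 (standard error 0.24) against Cre−. Those of Sall3 and Nr2f1 were 2.02 (standard error 0.28) and 1.65 (standard error 0.10). For Nr2f2 the difference was 0.95 (standard error 0.14) and for Thrb 0.65 (standard error 0.08), and in both the Tet tcKO libraries did not overlap those of Cre− or tHet. Each of these 5 had an exact two-sided permutation p of 0.1 against either control, the smallest that 3 libraries against 3 can give, and an adjusted p of 0.245 over 27 tests. The lower estimate of Crx in Tet tcKO adds to each of these differences against Cre−, also for a gene that did not change. How many of all genes separate over Crx was not counted. Over Otx2, a homeodomain factor of photoreceptors and bipolar cells, the differences against Cre− were smaller, at 2.35 for Rxrg, 1.61 for Sall3, 1.24 for Nr2f1, 0.55 for Nr2f2 and 0.25 for Thrb. Pou2f1 over Crx was also higher in every Tet tcKO library than in every tHet library (difference 0.31, standard error 0.10, exact p = 0.1, adjusted p = 0.245; −0.16 over Otx2) but overlapped with Cre−. Onecut1, Onecut2 and Pou2f2 over Crx overlapped between Tet tcKO and either control.

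Pairs of related genes were compared in the same way. Rxra encodes the widely expressed retinoid X receptor alpha. The log2 ratio of Rxrg to Rxra was −2.36, −2.84 and −2.50 in Cre− and −0.04, −0.24 and −0.37 in Tet tcKO, a difference of 2.35 (standard error 0.17). The log2 ratio of Thrb to Rxrg was 4.00 to 4.50 in Cre− and 1.91 to 2.22 in Tet tcKO, a difference of −2.10 (standard error 0.18). Nr2f1 over Nr2f2 was higher in Tet tcKO by 0.69 (standard error 0.14), with no overlap. These 3 ratios had an exact permutation p of 0.1 against both controls and an adjusted p of 0.300 over 18 tests. Thrb over Thra, the other thyroid hormone receptor gene, differed by −0.006 (standard error 0.13, exact p = 1.0), and Onecut1 over Onecut2 and Pou2f1 over Pou2f2 overlapped between genotypes.

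**Figure D3:**
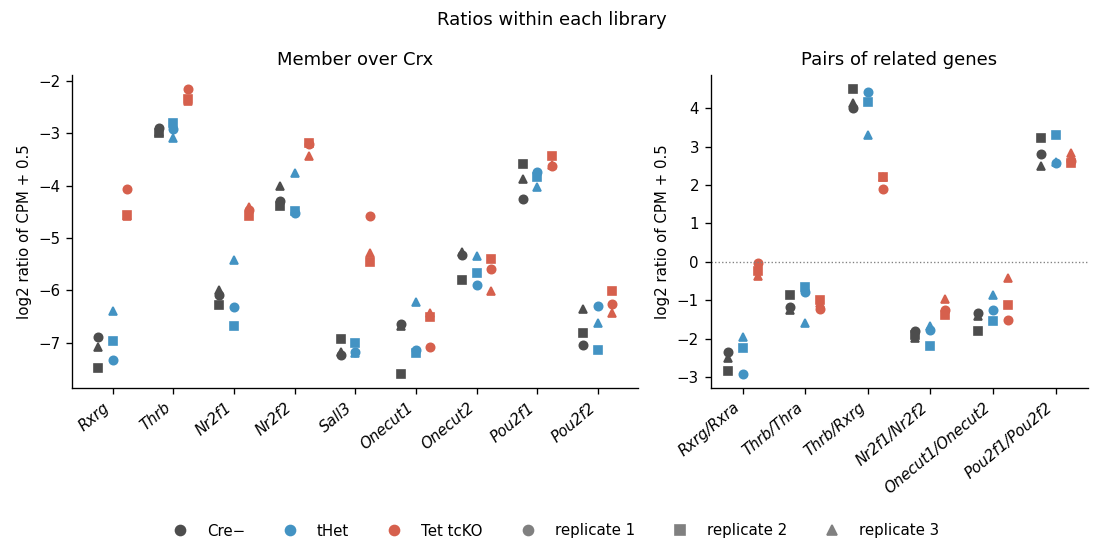
Log2 ratios of CPM + 0.5 within each library, of each gene to Crx (left) and of related genes to each other (right), coloured by genotype with a symbol per replicate. Rxrg, Sall3, Nr2f1, Nr2f2 and Thrb over Crx are higher in every Tet tcKO library than in every control, and Thrb over Rxrg is lower. Over Otx2 the difference of Thrb against Cre− is 0.25, and how many of all genes separate over Crx was not counted.

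Receptors of this kind act with hormone carriers, deiodinases, corepressors and other nuclear receptors. Of 21 such partner genes 20 were tested. Against Cre− limma called 1 higher and 1 lower, and the median log2FC was 0.021. With the replicate number as a block, limma also called Rarb higher (adjusted p = 0.00637) and Ttr lower (adjusted p = 9.45e-05). The labels do not give this pairing, which was read from the same values, so calls with the block are not independent support. Without the block, DESeq2 and both edgeR tests on the recovered reads also called Rarb higher against Cre−, and the edgeR exact test called Ttr lower. Against tHet, DESeq2 and the edgeR exact test also called Slc16a10 higher. Crym encodes mu-crystallin, a thyroid hormone binding protein of the cytosol. It was at 22.5, 21.6 and 21.7 CPM in Cre−, 21.1, 26.9 and 25.8 CPM in tHet and 97.4, 92.8 and 79.2 CPM in Tet tcKO. Crym rose with a log2FC of 2.01 against Cre− (standard error 0.21, limma adjusted p = 2.52e-06) and 1.85 against tHet (limma adjusted p = 9.51e-06), called in 24 of 24 alternative settings.

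The lipid-sensing receptor gene Ppara, a partner of retinoid X receptors, was at 6.55 to 11.5 CPM in Cre− and 0.772 to 3.49 CPM in Tet tcKO (log2FC −1.97 against Cre−, limma adjusted p = 0.00355). It was called lower against both controls, but not without Tet tcKO replicate 1 (limma adjusted p = 0.0412 against Cre− and 0.0317 against tHet) or replicate 3 (0.0481 and 0.0420), nor with totals that leave out CT010467.1 (0.0169 and 0.0135). Against tHet it was also lost without tHet replicate 1 (0.0139) or tHet replicate 2 (0.0166). Against tHet the limma calls were Crym higher and Dio2, Ppara and Ttr lower. Dio2, which encodes the deiodinase that makes active hormone, was at 113 to 131 CPM in tHet, 55.0 to 103 CPM in Cre− and 35.8 to 58.4 CPM in Tet tcKO. Its log2FC was −1.31 against tHet (limma adjusted p = 0.00256; 0.0299 without Tet tcKO replicate 3 and 0.0177 without tHet replicate 1) and −0.76 against Cre− (limma adjusted p = 0.0882). Ttr, a carrier of thyroid hormone that the pigment epithelium expresses, had a log2FC of −2.27 against tHet (limma adjusted p = 0.000496; 0.0313 without Tet tcKO replicate 3). Rpe65, another pigment epithelium gene, was at 15.7 to 23.8 CPM in tHet and 3.13 to 4.74 CPM in Tet tcKO, and its part in the result of Ttr was not tested. Thra and the corepressor gene Ncor1, the partner genes with the highest mean level per kilobase, had a log2FC of 0.32 and 0.14 against Cre− and were not called.

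**Figure D4:**
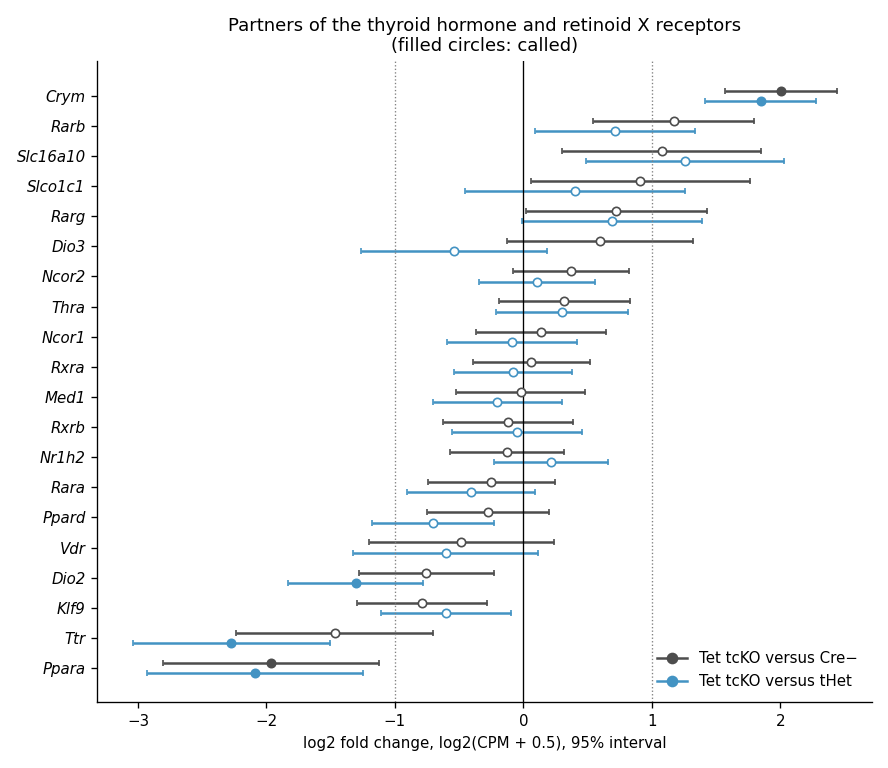
Log2FC with 95% limma intervals of the 20 tested partner genes in Tet tcKO against Cre− (grey) and tHet (blue), ordered by the first, with filled circles where called. Crym is the partner gene called higher in both comparisons and Ppara the one called lower in both; most of the others lie within −1 and 1.

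Among 10 relatives of the 9 genes, 7 were tested and 0 were called by limma in either comparison, with 3 at an unadjusted p under 0.05 in each and a median log2FC of 0.009 against Cre−. The share of all tested genes at such a p-value in these comparisons is not given here. On the recovered reads against Cre−, edgeR's quasi-likelihood test called 0, its exact test called Sall1 higher, and DESeq2 called Sall1 higher and Onecut3 lower. Against tHet each of these tools called 0. Sall2, the relative with the highest mean level per kilobase, had a log2FC of 0.13 against Cre− (limma adjusted p = 0.898). Onecut3 was named here after its values were seen. It was at 18.0, 11.0 and 16.6 CPM in Cre− and 9.65, 13.4 and 19.6 CPM in tHet. The Tet tcKO libraries were at 6.06, 9.42 and 5.30 CPM, below all Cre− libraries (log2FC −1.09 against Cre−, limma adjusted p = 0.0342, or 0.00779 with the replicate block). How many of all genes lie below Cre− in this way was not counted.

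Of 15 genes that regulate rod fate and photoreceptor identity, limma called 3 lower and 1 higher against Cre−, with a median log2FC of −0.37. Nrl, the leucine zipper factor that directs photoreceptors to rod fate, was at 441 to 558 CPM in Cre− and 63.4 to 144 CPM in Tet tcKO (log2FC −2.37, limma adjusted p = 9.15e-06). Its target Nr2e3 had a log2FC of −2.21 (limma adjusted p = 1.44e-05) and the nuclear receptor gene Esrrb one of −3.30 (limma adjusted p = 1.62e-05). Prdm1, a zinc finger factor of early photoreceptors, rose with a log2FC of 1.82 (limma adjusted p = 0.000336). Samd7 and Samd11, which encode photoreceptor repressors, were called lower against tHet by limma and against both controls by edgeR and DESeq2. In limma against Cre− Samd11 had a log2FC of −0.9999 (adjusted p = 0.0118) and Samd7 one of −1.04 (adjusted p = 0.0213, or 0.00169 with the replicate block). Against tHet Samd7 was at a limma adjusted p of 0.00992, and its call was lost without any of Tet tcKO replicates 1, 2 and 3 and tHet replicates 1 and 2 (0.0147 to 0.0815). It was also lost with totals that leave out CT010467.1 (log2FC −1.04, limma adjusted p = 0.0161).

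Of 15 genes that carry out the cone light response, 7 were called higher and 4 lower against Cre−, with a median log2FC of 0.50. Against tHet 7 were called higher and 3 lower. Opn1sw, the short-wavelength opsin, was at 91.5 to 130.0 CPM in Cre− and 265 to 521 CPM in Tet tcKO (log2FC 1.58, limma adjusted p = 0.000461). Opn1mw, the medium-wavelength opsin, named here after its values were seen, was at 35.2 to 36.5 CPM in Cre− and 27.2 to 53.4 CPM in Tet tcKO (log2FC −0.07, 95% interval −0.66 to 0.52, limma adjusted p = 0.970). Cngb3, a cone channel subunit, had the largest rise (log2FC 3.65, limma adjusted p = 2.28e-09), and Arr3, Cnga3, Gnat2, Gnb3 and Gngt2 had a log2FC between 1.37 and 2.09. The 4 that fell were Pde6h, the inhibitory subunit of cone phosphodiesterase (log2FC −2.95, limma adjusted p = 2.38e-05), Kcne2 (−2.38), Grk1, a kinase of rods as well as cones (−1.84), and Guca1a (−1.70). The call of Guca1a was lost without Cre− replicate 3 (limma adjusted p = 0.0195) or Tet tcKO replicate 3 (0.0184). Against tHet the call of Arr3 was lost without any 1 Tet tcKO replicate (limma adjusted p from 0.0123 to 0.0235). It was also lost without tHet replicate 1 (0.0261) or 2 (0.01001) and with no filter on low values (0.0196). That of Gnb3 was lost without Tet tcKO replicate 1 (0.0143) or tHet replicate 1 (0.0110).

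Markers of several cell types also differed between the genotypes in which the 3 genes rose, and their part in these results was not tested. Of 8 cone markers, most of them also in the list above, 6 were called higher and 0 lower against Cre−. Their summed level was 509.5 to 631 CPM in Cre−, 593 to 665 CPM in tHet and 1735 to 2687 CPM in Tet tcKO. Of 7 rod markers, 6 were called lower, and their sum was 16900.0 to 19159 CPM in Cre− and 2929.7 to 6319 CPM in Tet tcKO. Horizontal cells also express Onecut genes and Sall3. Of their 6 tested markers, Gja10 and Prox1 were called lower and 0 higher, and the sum was 714 to 898 CPM in Cre− and 459 to 793 CPM in Tet tcKO. Amacrine cells and Müller glia also express COUP factors. Of 7 amacrine markers 1 was called lower (Slc6a9), with sums of 346 to 415 CPM in Cre− and 235 to 472 CPM in Tet tcKO. Of 5 Müller glia markers 1 was called higher (Apoe) and 2 lower (Glul and Rlbp1), with sums of 1490.0 to 1902 CPM and 1139 to 1366 CPM. Of 3 tested progenitor markers, Mki67 was called higher, with sums of 10.5 to 11.8 CPM in Cre− and 20.8 to 34.7 CPM in Tet tcKO. Of 9 bipolar cell markers 1 was called higher (Cabp5) and 2 lower (Prkca and Trpm1), of 4 microglia markers 1 higher (Cx3cr1), and of 4 pigment epithelium markers 1 lower (Rpe65). All 3 markers of ciliary body and vitreous (Col9a1, Optc and Wfdc1) were called higher, with sums of 36.6 to 60.6 CPM in Cre−, 155 to 231 CPM in tHet and 246 to 308 CPM in Tet tcKO. Col9a1 and Optc were also called higher in tHet than in Cre−, but not with TMM scaling (limma adjusted p = 0.0871 and 0.0528), with totals that leave out CT010467.1 (0.0287 for both), with only the 6 libraries compared (0.0925 for both), by edgeR's quasi-likelihood test (0.115 and 0.0885) or with no filter on low values (0.0441 and 0.0251). Without Cre− replicate 1, Cre− replicate 2 or tHet replicate 2 the call of Col9a1 ended as well (limma adjusted p from 0.0150 to 0.0174). Against Cre− the calls of Cabp5, Rlbp1, Mki67, Col9a1 and Optc held in 24 of 24 alternative settings. Those of Gja10, Prox1, Slc6a9, Apoe, Glul, Prkca, Trpm1, Cx3cr1, Rpe65 and Wfdc1 all ended without Tet tcKO replicate 1 (limma adjusted p from 0.0129 to 0.0978). All of these but Rpe65 ended without Cre− replicate 3 (0.0103 to 0.0469), and all but Glul and Wfdc1 without Tet tcKO replicate 3 (0.0115 to 0.0767). Apoe and Wfdc1 ended without Cre− replicate 1 (0.0115 and 0.0104), Apoe, Wfdc1 and Cx3cr1 without Cre− replicate 2 (0.0182, 0.0210 and 0.0336), and Wfdc1 and Cx3cr1 without Tet tcKO replicate 2 (0.0225 and 0.0261). The log2FC of Trpm1 was −2.16, but −1.27 without Tet tcKO replicate 1, and it was not called by DESeq2 (adjusted p = 0.0877), either edgeR test, with TMM scaling (0.0344) or with totals that leave out CT010467.1 (0.0568). On these totals the call of Slc6a9 against Cre− ended as well (limma adjusted p = 0.0139). No ganglion cell, astrocyte, vascular or lens marker was called by limma against Cre−, and 4, 4, 4 and 3 of them were at an unadjusted p under 0.05. The share of all tested genes at such a p-value in this comparison is not given here. On the recovered reads DESeq2 called the ganglion cell markers Isl2 higher and Sncg lower and the edgeR exact test Isl2 higher, and edgeR and DESeq2 called 0 of the astrocyte, vascular and lens markers. With the replicate block limma called Isl2 higher and Sncg and the lens marker Crybb2 lower (adjusted p = 0.00239, 0.000604 and 0.00429), and also the bipolar cell marker Pcp2 and the amacrine cell marker Tfap2c lower (0.00131 and 0.00156). Without the block, DESeq2 and both edgeR tests also called Tfap2c lower against Cre−. DESeq2 and the edgeR exact test called Pcp2 lower and the progenitor marker Sfrp2 higher. Against tHet, limma without the block called 0 horizontal cell, microglia, progenitor and ciliary body markers, and of the bipolar cell markers Cabp5 alone. The same cone and rod markers, Slc6a9, Apoe, Glul, Rlbp1 and Rpe65 were called as against Cre−, and Sncg and Ttr lower. Without Tet tcKO replicate 3 the calls of Slc6a9, Apoe, Glul, Rpe65, Sncg and Ttr ended (limma adjusted p from 0.0204 to 0.0662). Those of Arr3, Gnat1 and Pde6a ended too (0.0120 to 0.0141). No marker in these lists was at 0 in all libraries.

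Rxrg, Sall3 and Nr2f1 ran alike across libraries, a likeness that contains their shared rise in Tet tcKO and was not measured within genotypes. Over the 9 libraries, which share their genotype groups and their totals, Pearson's r of log2(CPM + 0.5) was 0.96 between Rxrg and Nr2f1, 0.93 between Rxrg and Sall3 and 0.85 between Sall3 and Nr2f1. It was 0.86 between Rxrg and Nr2f2, 0.54 between Rxrg and Thrb and −0.36 between Rxrg and Onecut2. Among 11882 other tested genes with a mean of at least 5 CPM, those most like Rxrg were Nbeal2 (r = 0.996), Dock11 (0.991) and Mme (0.989). Those most like Sall3 were Nup210 (0.987), A830018L16Rik (0.987) and Lmo2 (0.985), and those most like Nr2f1 were Six6 (0.988), Rasef (0.985) and Acsf2 (0.982). These values describe likeness over 9 libraries and carry no test.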

How the data were processed

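RNA from whole retinas was depleted of ribosomal RNA and sequenced as stranded total RNA, with the 9 libraries pooled in 1 run. Per the submitters' processing notes, reads were trimmed with Trim Galore 0.6.7, aligned to mm10 with STAR 2.7.0f, counted per gene with HTSeq 0.11.2 and analysed with edgeR 4.2.2. The annotation release and the strand setting of the counting are not given in the sources used here. The deposited values are CPM of 55487 genes, for which reads were scaled by plain library totals. All positive values were whole reads to within 0.01 read, which gave back the reads. The CPM worth of 1 read is set by depth and does not measure the spread between libraries. The intervals given are limma intervals, which rest on that spread. The deposited columns of fold changes, p-values, calls and genotype means were not used, and 0 columns of per-sample values were left unmapped.

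Genes that reached 0.5 CPM in 3 or more of the 9 libraries entered limma 3.58.1 (trend) on log2(CPM + 0.5), with all 9 libraries in 1 model and a mean per genotype. Fold changes are on this scale, which understates those of low genes. Adjusted p-values are Benjamini-Hochberg values over the 21330 genes tested, and intervals are 95%. Ratios were compared by exact two-sided permutation tests. Alternatives were other pseudocounts, filters and scalings, edgeR 4.0.16 and DESeq2 1.42.0 on the recovered reads, a replicate block and leaving out each library. Leave-one-out and the replicate block were also combined with totals that leave out CT010467.1, a choice made after seeing the data. Between libraries of the same number in Cre− and Tet tcKO, deviations from the group means correlated at 0.560, 0.352 and 0.148. Those of the same number with tHet did not all correlate positively, and pairs of different number ran up to 0.50. The pairing comes from these values alone, not from the labels, and the block was fitted over all 9 libraries. The fits were tested on simulated data.

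Besides the 9 genes, list genes were named where called in a Tet tcKO comparison, highest in their list or needed for a ratio, overlapping genes were named beside each gene, and the 3 genes of most alike pattern were named for each called gene. The lists were receptor partners, relatives, rod fate regulators, cone output genes and markers of 14 cell types or tissues. A gene of the partner list and a gene of the rod marker list are not reported here and were left out of the counts. The genes and lists were chosen with earlier results of these data known. Positions are from GENCODE M21 (GRCm38), in which the version of the Sall3 identifier differs from the deposited one.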

Additional observations from a re-analysis of the deposited data

How the results depend on the processing

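The calls of Rxrg held in 24 of 24 alternatives in both comparisons. With 1 library left out, 1 to 3 of the 9 genes were called in Tet tcKO versus Cre− and 1 to 3 in Tet tcKO versus tHet. Of all genes, 768 were called against Cre−, but 417 with no filter on low values, 1228 by the edgeR exact test, 1156 at an adjusted p under 0.05 and 360 to 769 with 1 library left out. Against tHet 640 were called, but 351 with no filter, 1095 by the exact test, 1046 by DESeq2, 1013 with only the 6 libraries compared, 1104 at an adjusted p under 0.05 and 274 to 959 with 1 library left out. In tHet versus Cre− 9 were called, but 1 with no filter, TMM scaling, totals without CT010467.1, edgeR's quasi-likelihood test or only the 6 libraries, 47 by the exact test, 40 by DESeq2, 20 at an adjusted p under 0.05 and 0 to 17 with 1 library left out. The cause of these moves was not tested.

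In their deviations from the group means, Cre− and Tet tcKO libraries of the same replicate number correlated at 0.15 to 0.56. Pairs of the same number with tHet ran from −0.35 to 0.36. Whether libraries of the same number share more than that number was not tested. Pairs of different number, over all genotypes, ran from −0.57 to 0.50. A replicate block moved the calls to 1127 against Cre−, 1125 against tHet and 40 in tHet versus Cre−, or to 944, 751 and 4 with totals without CT010467.1. It changed no call of the 9 genes, and against Cre− it added calls of the list genes Rarb, Ttr, Onecut3, Samd7, Isl2, Sncg, Crybb2, Pcp2 and Tfap2c.

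With Otx2 in place of Crx the log2 ratio differences against Cre− were 0.25 for Thrb, 2.35 for Rxrg, −0.61 for Onecut2, 1.61 for Sall3, −0.051 for Pou2f1, 0.10 for Pou2f2, 1.24 for Nr2f1 and 0.55 for Nr2f2. Against tHet they were 0.17 for Thrb, 2.03 for Rxrg, −0.29 for Onecut1, −0.50 for Onecut2, 1.55 for Sall3, −0.16 for Pou2f1, −0.015 for Pou2f2, 1.19 for Nr2f1 and 0.51 for Nr2f2.

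Log2FC changed sign only for genes that were not called in that comparison. Totals without CT010467.1, with or without the replicate block, gave 0.11 for Onecut1 against Cre− and 0.033 for Pou2f1 against tHet, and TMM scaling gave −0.0058 for Nr2f2 in tHet versus Cre−. With 1 library left out, the log2FC against Cre− ran from −0.32 to 0.30 for Onecut1, −0.18 to 0.36 for Pou2f1 and −0.028 to 0.50 for Pou2f2. Against tHet it ran from −0.41 to 0.094 for Onecut1, −0.32 to 0.19 for Pou2f1 and −0.16 to 0.34 for Pou2f2. In tHet versus Cre− it ran from −0.13 to 0.31 for Thrb, −0.082 to 0.39 for Onecut1, −0.23 to 0.083 for Onecut2, −0.14 to 0.25 for Sall3, −0.070 to 0.34 for Pou2f1, −0.045 to 0.33 for Pou2f2, −0.16 to 0.21 for Nr2f1 and −0.063 to 0.23 for Nr2f2. Of the recomputed log2FC values 583 kept their direction and their side of the threshold, 54 changed sign and 11 of called genes no longer passed.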
